A study of Rattus norvegicus with 91 samples.

Results

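The genes described here are 6 markers of brain regions that lie beside the ventral tegmental area or are connected with it: Bcl11b, Rgs9, Pde10a, Ppp1r1b, Tcf7l2 and Pou4f1. They are 6 of the 14217 genes that the array's annotation names from a probe set with a single gene symbol. All 14 of their single-gene probe sets were taken, of 20826 such probe sets. Ventral tegmental area RNA of 91 rats was hybridised to 1 Affymetrix array each, and the values are log2 signals. The rats came from 5 pairs of lines, each made of a line bred to drink much alcohol, named first here, and one bred to drink little. The arrays were 8 of line HAD1 and 10 of LAD1, 8 of HAD2 and 9 of LAD2, 9 of P and 10 of NP, 10 of AA and 10 of ANA, and 8 of sP and 9 of sNP. No transgene or treatment is given in the labels, and age, sex and any alcohol exposure are not given for the animals in the sources used here. Arrays are named by line and animal number, so that the arrays titled P.P10 and NP.NP8 are P 10 and NP 8.

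The ventral tegmental area is a midbrain region of dopamine and GABA neurons whose dopamine axons end mainly in the ventral striatum and the cortex. The medium spiny neurons of the striatum are known for high levels of Bcl11b, Rgs9, Pde10a and Ppp1r1b, while Tcf7l2 marks the thalamus and habenula, and Pou4f1 the medial habenula, the red nucleus and other nuclei near the tegmentum. A piece of tissue that holds more or less of a neighbouring region can carry different amounts of these RNAs. In bulk tissue fewer cells of a type and less RNA per cell cannot be told apart.

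Bcl11b encodes a zinc finger transcription factor also called CTIP2, and Rgs9 a regulator of G protein signalling that speeds the switching off of G proteins. Pde10a encodes a phosphodiesterase that breaks down cAMP and cGMP. Ppp1r1b encodes DARPP-32, which inhibits protein phosphatase 1 once protein kinase A has phosphorylated it. Tcf7l2 is a transcription factor at the end of the Wnt pathway, and Pou4f1, also called Brn3a, is a POU-domain transcription factor of sensory and habenular neurons.

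Bcl11b and Ppp1r1b had the largest shifts on array P 10, but the RefSeq promoters read here held none for them. Of the 4 genes with a promoter, Rgs9 and Pde10a stood far above their line on P 10 and Pou4f1 below. The promoters of these 3 genes are shown. RefSeq gives them in the rat assembly GRCr8 as 250 bases before and 50 bases after an annotated start, 5′ to 3′ on the strand of the gene. The window of Rgs9 lies at chr10:94770338-94770637 on the minus strand. Pde10a has 2 annotated starts, with windows at chr1:54765619-54765918 and chr1:54501157-54501456, both on the minus strand. The window of Pou4f1 lies at chr15:87674594-87674893 on the minus strand. Capitals mark the letters of 3 motifs searched on both strands, the GC box GGGCGG, the cAMP response element half-site TGACG and the TATA box TATAAA.
Rgs9: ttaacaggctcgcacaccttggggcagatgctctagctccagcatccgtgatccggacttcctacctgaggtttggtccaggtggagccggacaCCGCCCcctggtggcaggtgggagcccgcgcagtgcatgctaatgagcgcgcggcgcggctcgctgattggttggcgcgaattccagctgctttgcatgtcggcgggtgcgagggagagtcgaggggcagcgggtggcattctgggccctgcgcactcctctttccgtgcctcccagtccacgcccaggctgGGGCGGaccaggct
Pde10a start 1: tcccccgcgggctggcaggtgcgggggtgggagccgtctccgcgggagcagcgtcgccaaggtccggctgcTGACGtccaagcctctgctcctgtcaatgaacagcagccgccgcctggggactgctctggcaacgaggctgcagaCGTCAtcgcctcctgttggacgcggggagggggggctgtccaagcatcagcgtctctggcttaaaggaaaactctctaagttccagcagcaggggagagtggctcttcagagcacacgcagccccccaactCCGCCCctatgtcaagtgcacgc
Pde10a start 2: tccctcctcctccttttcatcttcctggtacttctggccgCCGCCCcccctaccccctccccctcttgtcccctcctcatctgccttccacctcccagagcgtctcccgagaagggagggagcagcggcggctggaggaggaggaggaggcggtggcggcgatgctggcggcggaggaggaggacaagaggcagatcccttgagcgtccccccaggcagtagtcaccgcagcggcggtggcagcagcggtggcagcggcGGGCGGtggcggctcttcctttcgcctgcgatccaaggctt
Pou4f1: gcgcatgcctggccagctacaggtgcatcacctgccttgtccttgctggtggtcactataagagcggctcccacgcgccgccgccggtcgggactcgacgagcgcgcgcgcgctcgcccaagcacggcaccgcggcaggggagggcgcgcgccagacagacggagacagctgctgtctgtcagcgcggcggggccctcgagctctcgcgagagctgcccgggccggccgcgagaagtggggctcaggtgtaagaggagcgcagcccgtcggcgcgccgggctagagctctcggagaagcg
The Rgs9 window held 2 GC boxes, and the Pde10a windows held 1 and 2. Start 1 of Pde10a also held 2 half-sites, and the other printed windows held 0. The Pou4f1 window held 0 matches to the 3 motifs. Tcf7l2, at chr1:264791085-264791384 on the plus strand, had 6 GC boxes and 1 half-site in its window. Over 33469 RefSeq promoters of the same length, 33.1% held a GC box, 21.2% a half-site and 14.2% a TATA box, so single matches are common. The GC content was 66.3% for Rgs9, 65.7% and 68.7% for Pde10a, 70.3% for Tcf7l2 and 72.3% for Pou4f1, against a median of 51.7%. The arrays measure RNA and not binding, and a match is a description of the letters only.

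Of the 14 probe sets, 9 were tested, at least 1 for each gene. A probe set was tested where its highest line mean reached a log2 signal of 7.02, the 40th percentile over the whole table. The 5 others, 1 of Bcl11b (1378520_at), 1 of Rgs9 (1382090_at) and 3 of Tcf7l2 (1378048_at, 1392592_at and 1394497_at), were below it in all 10 line means. For each gene the probe set with the highest mean is the leading one, and values below are its values unless another ID is given. The line mean of Pou4f1 reached the threshold only in lines P and NP. In the other 8 lines its mean lay in the dim range of the arrays, though single arrays read up to 7.27 in HAD2 and 7.32 in LAD2.

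Some arrays stand apart in these data. The labels name the tissue as ventral tegmental area. Th encodes tyrosine hydroxylase, the first enzyme of dopamine synthesis and a defining marker of that region's neurons. Its standard deviation within lines was 0.16 to 0.23 in the pairs other than P/NP and 2.02 in P/NP. Among the arrays labelled P the signal of Th ran from 9.12 through a median of 14.08 to 14.95, and among those labelled NP from 8.23 through 13.65 to 14.88. The lowest P value was P 10 and the lowest NP value NP 8. The mean correlation of an array with the others of its line was lowest for P 10 at 0.931, followed by NP 10 at 0.956, NP 9 at 0.960, NP 8 at 0.964 and NP 2 at 0.966. The next lowest P or NP array had 0.972, and arrays of other lines at least 0.974. The 3'-minus-5' signal of Gapdh, a sign of RNA quality, was 0.15 on P 10 and 0.124 on NP 8, inside the 0.0875 to 0.208 of all P and NP arrays. Cut into 5 sets, a number that was chosen, the distributions of the values followed the pairs except that 1 AA array clustered with P/NP and 1 AA and 1 ANA array with sP/sNP. Levels are compared here only within a pair.

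On array P 10 the 4 striatal genes were 4.0 to 26.1 times the median of the other P arrays, and Pou4f1 was at least 1.995-fold lower. Where a signal on the array lay below the threshold of 7.02, as that of Pou4f1 did, it was set to the threshold for such a bound. The other bounds of this kind are rounded. Bcl11b, the striatal transcription factor, had 12.43 on P 10 against 7.10 to 8.20 on the other 8 P arrays, a shift of 4.71 from their median or 26.1-fold. Its other probe sets shifted by 4.06 (1391948_at) and by 3.79 (1378520_at). The second of these read 9.67 on P 10 and 5.66 to 6.21 on the other P arrays, so a probe set that was dim elsewhere was bright there. Ppp1r1b, the gene of DARPP-32, had 11.90 on P 10 and 8.21 to 8.87 on the others, a 9.97-fold shift. Rgs9 had 9.74 on P 10 and 7.23 to 7.85 on the others, a 4.54-fold shift. Pde10a had 11.59 against 9.42 to 9.79, a 4.0-fold shift, and its probe set 1370669_a_at shifted by 1.83. None of these values overlaps the rest of the line.

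Tcf7l2 shifted less, to 10.93 on P 10 against 9.98 to 10.48 on the other P arrays, or 0.67 above their median (1.59-fold). Its other probe sets were 0.17 (1379815_at), 0.67 (1392592_at), 0.18 (1378048_at) and 0.24 (1394497_at) above their medians. Pou4f1 went the other way, with 6.30 on P 10 and 6.95 to 8.65 on the other P arrays, a measured shift of -1.72 into the dim range. Of the 9 tested probe sets, 6 were more than 1 log2 unit (2-fold) above the other P arrays and 1, Pou4f1, was as far below as measured but not with the threshold in place of its signal. Over all 15152 tested probe sets 3.76% were as far above and 4.32% as far below. From the top of that ranking Bcl11b stood at place 11, Ppp1r1b at 32, Rgs9 at 102, Pde10a at 123, Tcf7l2 at 1070 and Pou4f1 at 14973. This array has no replicate, so these shifts have no test.

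**Figure D1:**
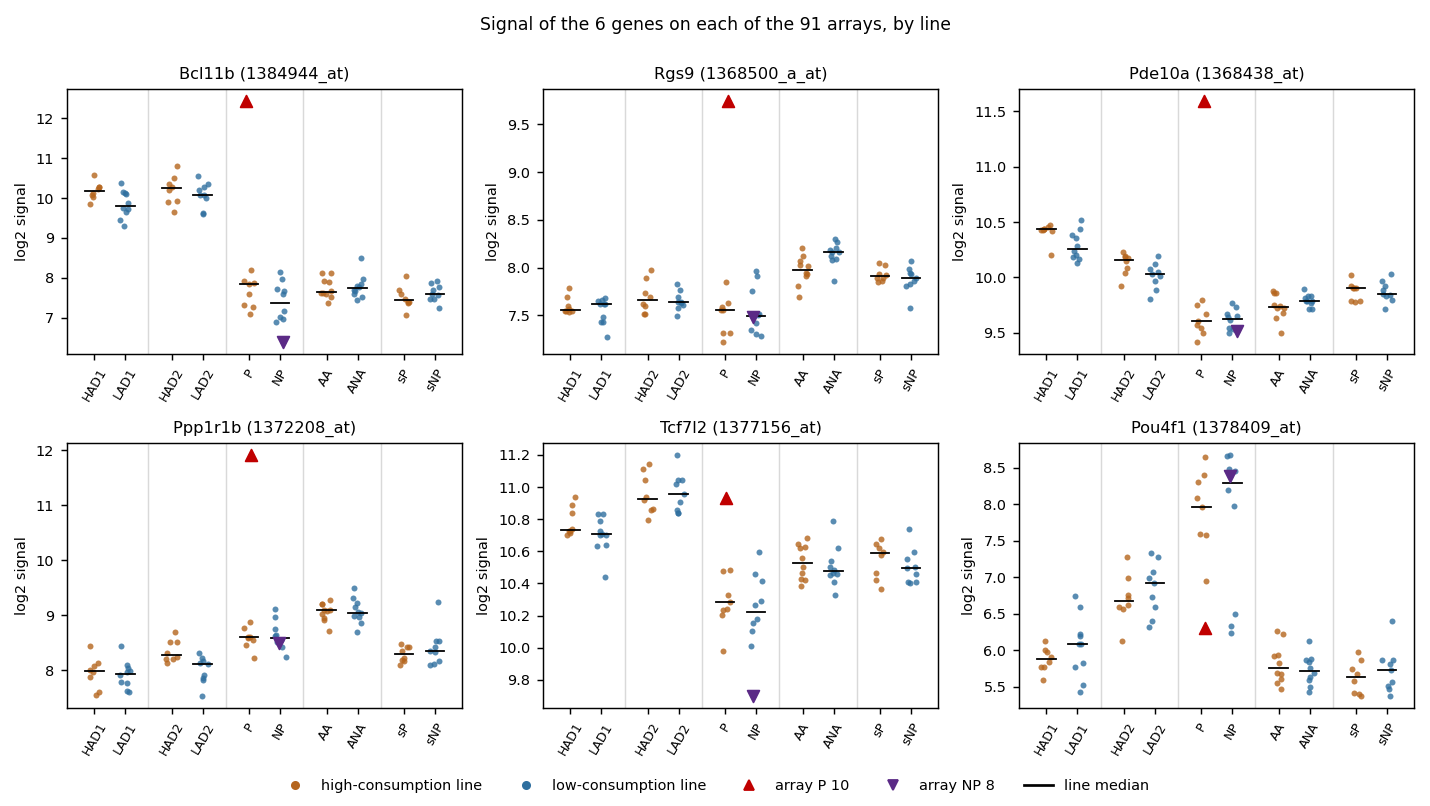
Log2 signal of the leading probe set of each gene (y axis) on all 91 arrays, grouped by line along the x axis, with brown points for high-consumption and blue points for low-consumption lines, black bars for line medians and triangles for P 10 and NP 8. P 10 stands above every other P or NP array for Bcl11b, Rgs9, Pde10a, Ppp1r1b and Tcf7l2, and Pou4f1 spreads from 6.23 to 8.67 over the arrays labelled P and NP.

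The other genes of these regions moved on P 10 by group. Of 22 listed striatum and basal forebrain genes 19 were tested, of which 17 were more than 1 log2 unit above the other P arrays and 1 below, with a median shift of 2.40, against -0.05 for all genes. Of 11082 genes whose leading probe set was tested, 4.0% were as far above and 4.44% as far below. Pdyn, the gene of prodynorphin, had 13.63 on P 10 and 7.91 to 8.42 on the other P arrays. Penk, the gene of proenkephalin, had 14.41 against 8.44 to 9.79, and Drd1, the D1 dopamine receptor, 12.01 against 6.30 to 7.56. Pdyn and Drd1 mark the direct and Penk the indirect output pathway of the striatum. Meis2 shifted by 4.11 and Adora2a, an adenosine receptor, by 3.99.

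Other forebrain genes were mixed. Of 12 tested cortex and hippocampus genes 5 were more than 1 unit above and 2 below as measured, with a median of 0.23. Camk2a and Wfs1, which striatal neurons also express, shifted by 3.32 and 3.22, and Mef2c and Lamp5 by 3.03 and 2.97. Slc17a7, the vesicular glutamate transporter of cortical neurons, read 5.86 on P 10 and 5.76 to 5.97 on the other P arrays. All of these are dim, below the threshold of 7.02, so nothing is read from the lack of a shift. Slc5a7, the choline transporter of cholinergic neurons, stood on the habenula and interpeduncular list and shifted by 5.56, from 5.16 to 7.84 on the others to 11.40 on P 10.

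Genes of the midbrain were low on P 10. Of 15 tested dopamine neuron genes 13 were more than 1 unit below the other P arrays and 0 above, with a median shift of -3.31, or -2.75 with dim signals set to the threshold. Th was 31.7-fold lower, Slc6a3, the dopamine transporter, shifted by -5.25, Slc18a2, the vesicular monoamine transporter, by -4.71, and Ddc, the decarboxylase that makes dopamine, by -3.31. Sncg shifted by -5.53, and Foxa2, a transcription factor of ventral midbrain neurons, was at least 12-fold lower, with a dim 5.43 on P 10. Of 7 tested genes of other midbrain nuclei 6 were more than 1 unit below as measured, 5 with dim signals set to the threshold, and 0 above. Gata3 was at least 3.0-fold and Lhx1 at least 2.1-fold lower, while Pvalb shifted by -2.29 and Glra1 by -1.64.

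Thalamus genes gave 1 above and 4 below of 12 tested, with Slc17a6, the glutamate transporter of subcortical neurons, at 9.08 against 12.78 to 14.15, Ntng1 shifted by -2.61, Rora by -1.32 and Prkcd by 1.58. The remaining habenula genes, which encode nicotinic receptor subunits, were dim on P 10, with Chrna5 at least 4.04-fold lower and Chrna3 lower by a smaller bound. Of 10 tested myelin genes 0 were more than 1 unit above and 1 below (Ugt8, by -1.02), with a median of -0.17. Of the 3 tested choroid plexus genes, all dim on P 10, Otx2 was at least 3.97-fold lower, and the 2 tested hypothalamus genes stayed within 1 unit. The 3 tested serotonin genes were dim on P 10 and in the median of the other P arrays, so no shift is given. Averaged over the tested genes of a list, striatum genes stood at 10.78 on P 10 and at 8.17 to 8.60 on the other P arrays, dopamine genes at 8.62 and 10.12 to 12.65, and the 6 genes described here at 10.48 and 8.45 to 8.66.

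Array NP 8 had the lowest Th signal of the arrays labelled P or NP but not the forebrain signal of P 10. On it Th was 57.5-fold lower than the median of the other 9 NP arrays, Slc6a3 shifted by -5.77, Slc18a2 by -5.31 and Ddc by -2.74, and 11 of the 15 dopamine genes were more than 1 unit below, with a median of -2.35. Bcl11b was 6.40 on NP 8 and 6.88 to 8.16 on the other NP arrays, at least 1.48-fold lower, and its probe set 1391948_at shifted by -0.98. Tcf7l2, at 9.70 against 10.01 to 10.60, was also the lowest of its line, with shifts of -0.56 there and -0.60 for 1379815_at. Rgs9, Pde10a and Ppp1r1b lay within their line, at 7.48, 9.51 and 8.49. Pou4f1, at 8.39, was 0.19 above the median of the other NP arrays. Thus 0 of the 9 tested probe sets were more than 1 unit above the line and 1, Bcl11b at its dim measured signal, was as far below, against 0.099% and 1.58% of all tested probe sets.

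The lists show the same contrast between the arrays. On NP 8, 0 of 19 striatum genes were more than 1 unit above the line and 2 below (Rasd2 by -1.42 and, at a dim signal, Rxrg by -1.02), with a median of 0.00, where 0.0902% of all tested genes were as far above and 1.81% as far below. Dlk1 and Slc10a4, both on the dopamine list, were low, Dlk1 by at least 16.5-fold and Slc10a4 with a shift of -3.91, while Foxa2 read 10.81 on NP 8 against 9.74 to 10.75 on the other NP arrays, and Sncg shifted by 0.39. Chrna3 was dim on NP 8 and at least 1.6-fold lower, and Chrna5 was dim there beside a line median of 7.08, near the threshold. Of the thalamus genes Calb2 shifted by -1.84, Rgs16 by -1.10 and, at a dim signal, Synpo2 by -1.20, while Slc17a6 was 0.32 above. Of the other lists, Neurod6 on the cortex list shifted by -1.53 to a dim signal, Glra1 on the midbrain list by -1.17 and 1 choroid plexus gene by more than 1 unit, all downward, whereas 0 of the 10 myelin, 3 serotonin and 2 hypothalamus genes did so. The myelin genes had a median of -0.45 there, and their mean of 12.82 was below the 13.07 to 13.77 of the other NP arrays. What part RNA from other tissue has in these shifts was not tested.

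**Figure D2:**
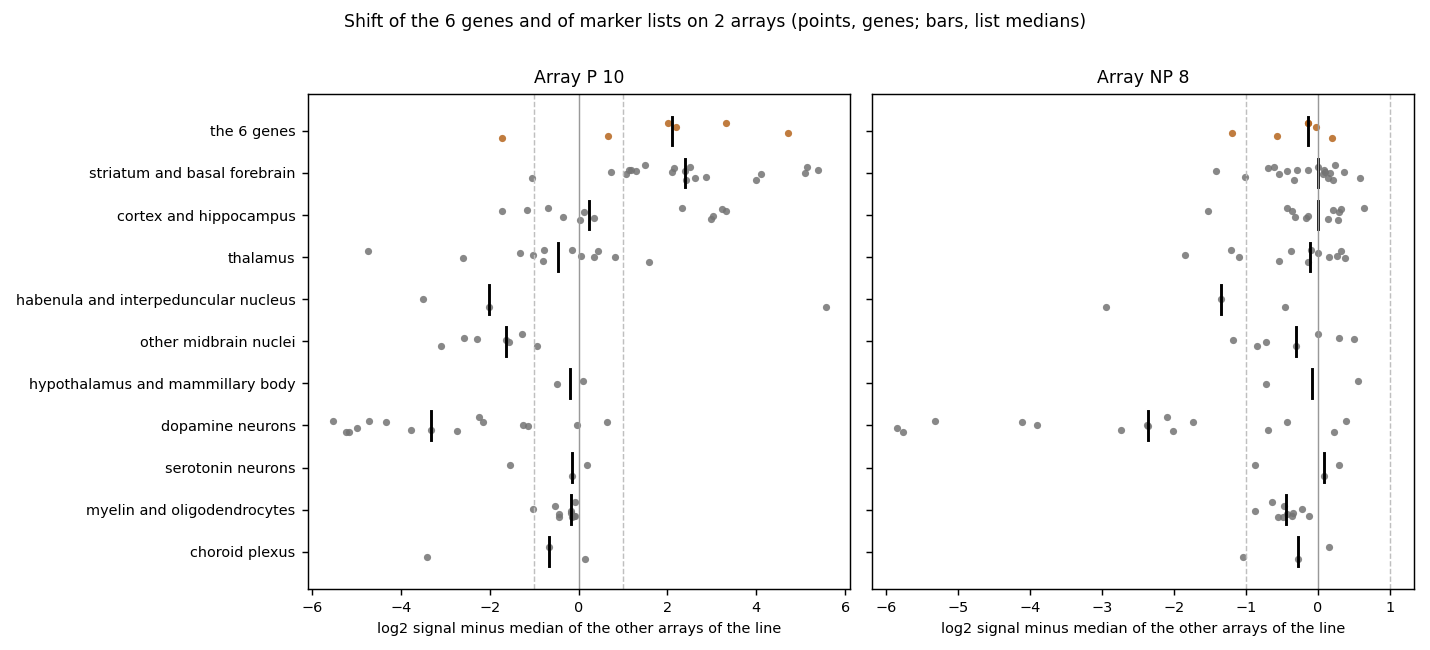
Shift of each tested gene (points, brown for the 6 genes described and grey for listed markers) on P 10 and on NP 8, as log2 signal minus the median of the other arrays of the same line (x axis, whose range differs between the panels), with black bars for list medians, dashed lines at 1 unit and dim signals as measured. On P 10 the striatum median is 2.40 and the dopamine median -3.31, and on NP 8 they are 0.00 and -2.35.

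P 10 was not the only P or NP array with wide shifts over all genes. It had 8.08% of the tested probe sets more than 1 log2 unit from the median of the other arrays of its line, NP 10 had 5.31%, NP 9 5.00%, NP 2 4.12% and NP 8 1.68%. The 17 P and NP arrays other than P 10 and NP 8 ran from 0.185% through a median of 0.792% to that of NP 10, and the 72 arrays of the other pairs from 0.066% through 0.218% to 2.6%. The arrays NP 2, NP 9 and NP 10 had Th at 14.70, 14.88 and 14.47, in the upper part of the NP range, and the lowest Pou4f1 of line NP, at 6.33, 6.49 and 6.23. They also had the highest Rgs9 of that line, at 7.91, 7.76 and 7.96.

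Pou4f1 spread as widely in the P/NP pair without P 10 and NP 8. In line P it ran from 6.30 through a median of 7.96 to 8.65, and in NP from 6.23 through 8.29 to 8.67. Its standard deviation (SD) within lines was 0.90 over the 19 arrays and 0.85 over the 17 without P 10 and NP 8, at the 98.8th percentile of all tested probe sets in the smaller set. With NP 2, NP 9 and NP 10 left out too, it was 0.45, at the 96.9th percentile. Apart from P 10, Pou4f1 was high where Th was low. The arrays P 8, NP 3, NP 7 and NP 5 had Th between 11.38 and 11.87 and Pou4f1 at 8.65, 8.65, 8.67 and 8.46. On P 2 and P 7, with the highest Th of line P (14.95 on both), Pou4f1 was 7.57 and 6.95.

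Over the 17 arrays, with the line mean removed, Pearson's r of Pou4f1 with Th was -0.78 and Spearman's rho -0.85 (permutation test within lines, 2-sided, p = 0.00128 for r, adjusted p = 0.0269, and adjusted p = 0.00157 for rho), and r was -0.77 without P 8 and NP 3, the arrays farthest from the median of Th. Leaving out NP 2, NP 9 and NP 10 as well, it was -0.83 over 14 arrays with a rho of -0.87 (permutation p = 1e-04 for r, adjusted p = 0.0105, and adjusted p = 0.0021 for rho). With P 10 and NP 8 it was -0.31 over 19 arrays with a rho of -0.65 (permutation p = 0.217 and 0.00436, adjusted p = 0.455 and 0.0763). These are from a family of 105 relations, 21 in each pair, between the 6 genes and Th, to which the adjustment applies. The pattern of Pou4f1 against Th thus held without these 2 arrays and without all 5, and did not pass over all 19. Of the 2 arrays, NP 8 had low Th (8.23) with high Pou4f1 (8.39), like the pattern. P 10 had low Th (9.12) with low Pou4f1 (6.30), unlike it. The correlation without P 10 alone is not given here.

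Other relations depended more on which arrays were kept. Rgs9 and Th had an r of 0.76 and a rho of 0.78 over the 17 arrays (permutation p = 0.00107 and 0.00104, adjusted p = 0.0269 and 0.0273), with 0.74 without P 8 and NP 3. Over the 14 arrays r was 0.71 (permutation p = 0.00469, adjusted p = 0.123), and with all 19 it was -0.28 (permutation p = 0.208, adjusted p = 0.454), so that it passed only over the 17 arrays. Rgs9 and Pou4f1 had an r of -0.93 and a rho of -0.88 over 17 arrays (permutation p = 2e-05 and 3e-05, adjusted p = 0.0021 and 0.00157, r -0.87 without NP 10 and NP 2) and an r of -0.85 over 14 (permutation p = 0.00116, adjusted p = 0.0609). Tcf7l2 and Pou4f1 had -0.77 and -0.76 over 17 arrays (permutation p = 0.00054 and 0.0006, adjusted p = 0.0269 and 0.021, r -0.65 without NP 10 and NP 2) and an r of -0.50 over 14 (permutation p = 0.113, adjusted p = 0.395). Rgs9 and Tcf7l2 had an r of 0.76 and a rho of 0.75 over the 17 arrays (permutation p = 0.00085 and 0.0015, adjusted p = 0.0269 and 0.0308, r 0.65 without NP 10 and P 5). Against Th over the 17 arrays, Bcl11b had an r of 0.55 and Tcf7l2 of 0.56 (permutation p = 0.0308 and 0.0275, adjusted p = 0.202 for both). Pde10a and Ppp1r1b had -0.10 and -0.18 (permutation p = 0.713 and 0.526, adjusted p = 0.86 and 0.746).

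The correlations among the striatal genes were lower without P 10 and NP 8. Over all 19 arrays Bcl11b had an r of 0.92 with Rgs9, 0.94 with Pde10a and 0.94 with Ppp1r1b (permutation p = 0.00189, 0.00209 and 0.00308, adjusted p = 0.0313, 0.0313 and 0.0362), but the rho values of 0.57, 0.64 and 0.48 had adjusted p of 0.144, 0.0805 and 0.264. Without P 10 and NP 8 the same r were 0.56, 0.42 and 0.48 (permutation p = 0.0302, 0.0918 and 0.0685, adjusted p = 0.202, 0.321 and 0.298). Pde10a and Ppp1r1b went from 0.96 (adjusted permutation p = 0.0384) to 0.41 (adjusted permutation p = 0.321). In all, 9 of 21 relations had an adjusted p under 0.05 with every P and NP array, 6 positive and 3 negative, and 5 of 21, 2 positive and 3 negative, without P 10 and NP 8.

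**Figure D3:**
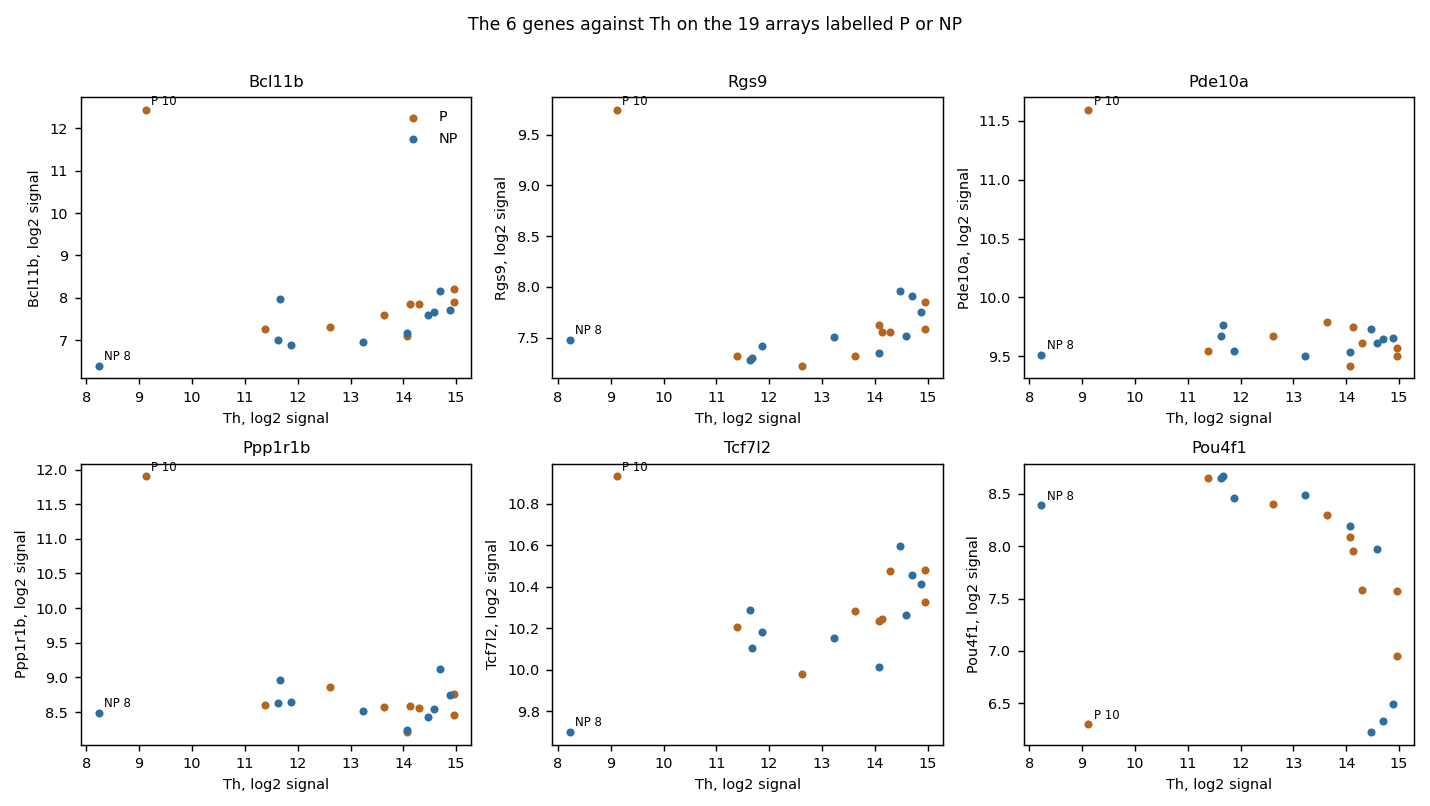
Log2 signal of each gene (y axis) against log2 signal of Th (x axis) on the 19 arrays labelled P (brown) or NP (blue), with P 10 and NP 8 named. Pou4f1 falls from 8.65 on the array P 8 to 6.95 on P 7 as Th rises from 11.38 to 14.95, while P 10, with Th at 9.12, has 6.30.

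In the other pairs the genes had narrower ranges. Bcl11b ran from 9.86 through a median of 10.17 to 10.58 in HAD1 and from 9.30 through 9.81 to 10.38 in LAD1, and from 9.65 through 10.25 to 10.81 in HAD2 and from 9.60 through 10.07 to 10.55 in LAD2. It ran from 7.36 through 7.65 to 8.11 in AA and from 7.45 through 7.74 to 8.50 in ANA. In sP it ran from 7.08 through 7.43 to 8.05 and in sNP from 7.25 through 7.59 to 7.92. The lines of each pair overlap throughout. Its SD within lines was 0.25 to 0.34 in these 4 pairs, at the 87.7th to 95.8th percentiles of the tested probe sets, against 1.19 in P/NP with all arrays and 0.43 without P 10 and NP 8.

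Rgs9 was tighter, with an SD of 0.11 to 0.14 in the 4 other pairs, 0.56 in P/NP with all arrays and 0.24 without P 10 and NP 8. It ran from 7.54 through 7.56 to 7.79 in HAD1 and from 7.28 through 7.62 to 7.68 in LAD1. It ran from 7.69 through 7.98 to 8.20 in AA and from 7.86 through 8.16 to 8.30 in ANA. In the AA/ANA pair Rgs9 and Th had an r of 0.66 and a rho of 0.70 (n = 20, permutation p = 0.0031 and 0.00176, adjusted p = 0.0362 and 0.0462), with 0.43 without AA 13 and AA 9, so that the size rests in part on those 2 arrays. The adjustment runs over all 105 relations and so depends on the P and NP arrays. Without P 10 and NP 8, 5 of the 105 had an r that passed, all in P/NP, so this r did not pass there. Without the 3 AA and ANA arrays that cluster with other pairs, r was 0.77 and rho 0.62 (n = 17, permutation p = 0.00156 and 0.0158, adjusted p = 0.0273 and 0.166). Of the 21 relations in each of the other 3 of these pairs, 0 had an r with an adjusted p under 0.05.

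Pde10a had an SD of 0.09 to 0.11 in the 4 other pairs, 0.47 in P/NP and 0.11 there without P 10 and NP 8, at the 23.3rd percentile. Its other tested probe set, 1370669_a_at, spread more, with an SD of 0.148 to 0.236 in the 4 other pairs, at the 66.8th to 87.2nd percentiles, and 0.143 in P/NP without P 10 and NP 8. The leading one ran from 10.20 through 10.44 to 10.47 in HAD1 and from 10.13 through 10.26 to 10.52 in LAD1, and from 9.50 through 9.73 to 9.88 in AA and from 9.71 through 9.78 to 9.90 in ANA. Tcf7l2 had an SD of 0.105 to 0.124 in the 4 other pairs and 0.26 in P/NP, or 0.18 without the same arrays. It ran from 10.79 through 10.93 to 11.14 in HAD2 and from 10.84 through 10.96 to 11.20 in LAD2.

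Ppp1r1b had an SD of 0.20 to 0.27 in the 4 other pairs, 0.79 in P/NP and 0.24 without P 10 and NP 8. It ran from 8.09 through 8.28 to 8.48 in sP and from 8.09 through 8.35 to 9.24 in sNP, the highest being the array sNP 9. That array also had the highest Bcl11b (7.92) and Tcf7l2 (10.74) of its line, but the lowest Rgs9 (7.58) and Pde10a (9.71). Pou4f1 had an SD of 0.24 to 0.35 in the 4 other pairs, where its line means were dim. Its signal ran from 6.12 through 6.67 to 7.27 in HAD2 and from 6.31 through 6.91 to 7.32 in LAD2. It ran from 5.47 through 5.76 to 6.26 in AA and from 5.43 through 5.72 to 6.12 in ANA.

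**Figure D4:**
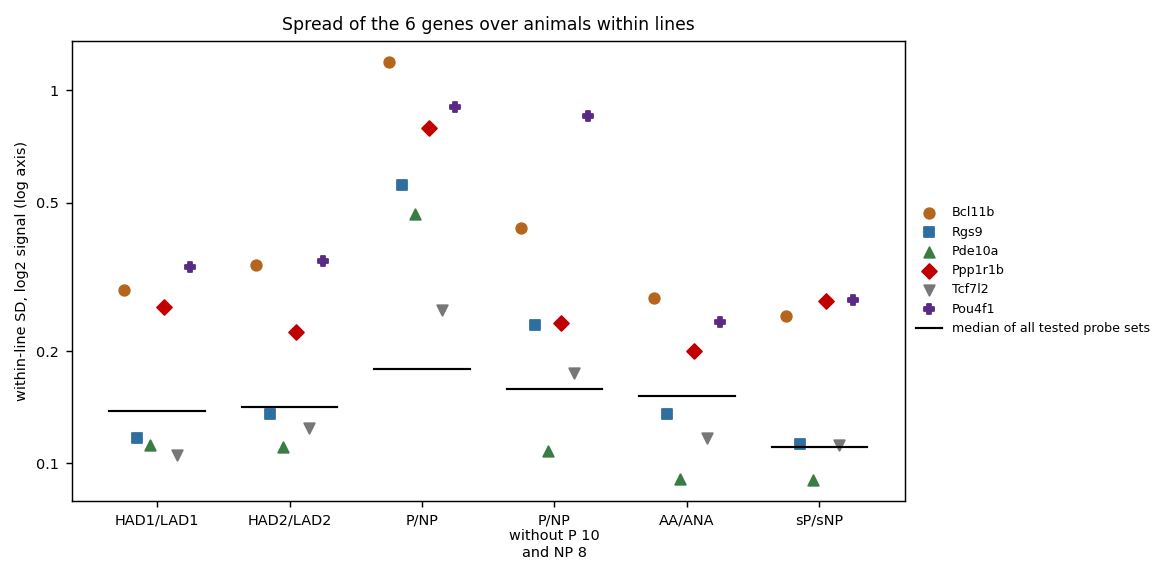
SD of log2 signal within lines (y axis, log scale) for the leading probe set of each gene in the 5 pairs, and in P/NP without P 10 and NP 8 (x axis), with black bars for the median of all tested probe sets. Bcl11b falls from 1.19 to 0.43 when these arrays are left out of P/NP, while Pou4f1 goes from 0.90 to 0.85.

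The tested probe sets of Bcl11b and of Pde10a agreed most closely in P/NP. The signal of Bcl11b 1391948_at, with the line mean removed, had an r with the leading probe set of 0.76 in HAD1/LAD1, 0.80 in HAD2/LAD2, 0.99 in P/NP, 0.59 in AA/ANA and 0.92 in sP/sNP. For Pde10a 1370669_a_at the same values were 0.35, 0.61, 0.97, 0.25 and 0.58, and for Tcf7l2 1379815_at they lay between 0.16 and 0.69. These are descriptions over arrays of 1 pair, with no test.

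The question of the study's design is whether the high and low lines differ, and for these genes 0 of 9 probe sets passed in any of the 5 pairs. They were fitted with limma over all 15152 tested probe sets, and differences are the high minus the low line on the log2 scale with their standard error (SE). With Benjamini-Hochberg adjustment under 0.05, limma called 4.09% of all tested probe sets in HAD1/LAD1, 5.23% in HAD2/LAD2, 0.0% in P/NP, 3.17% in AA/ANA and 0.0% in sP/sNP. At an unadjusted p under 0.05 limma had 869 probe sets in P/NP and 171 in sP/sNP. No pair had a probe set of these genes whose lines did not overlap, against 0.205%, 1.6%, 0.0%, 0.033% and 0.0% of all tested probe sets in the same order.

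Bcl11b was 0.82 ± 0.27 (SE) higher in the arrays labelled P than in those labelled NP (limma p = 0.00347, adjusted p = 0.816). Its values ran from 7.10 through 7.86 to 12.43 in P and from 6.40 through 7.38 to 8.16 in NP. Without P 10 and NP 8 the difference was 0.18 ± 0.15 (limma adjusted p = 0.9999), and without P 10 alone 0.29. Line P had a mean of 8.17 ± 1.64 (SD, n = 9) with P 10 and of 7.64 ± 0.38 (n = 8) without it, and NP had 7.35 ± 0.55 (n = 10) with NP 8 and 7.46 ± 0.46 (n = 9) without it. With arrays weighted by their residual spread the difference was 0.52 ± 0.17 and passed (limma adjusted p = 0.0376), in a fit that called 10% of all tested probe sets. The weights were 0.10 for P 10, 0.14 for NP 10, 0.17 for NP 9 and 0.19 for NP 2. NP 8, with the lowest Bcl11b of its line, kept 0.52. The probe set 1391948_at did not pass in that fit. Its difference was 0.59 ± 0.23 with all arrays unweighted and 0.12 without P 10. Without P 10, NP 2, NP 8, NP 9 and NP 10 the leading probe set had 0.36 ± 0.17 (limma adjusted p = 0.253), where 1.04% of all tested probe sets were called.

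Most other P minus NP differences shrank without these arrays. Pde10a had 0.21 ± 0.11 (limma adjusted p = 0.869), Rgs9 0.21 ± 0.13 (0.921), Ppp1r1b 0.32 ± 0.19 (0.92) and Tcf7l2 0.14 ± 0.07 (0.877) with all arrays. Without P 10 and NP 8 they were -0.02 ± 0.05, -0.05 ± 0.07, -0.07 ± 0.11 and 0.01 ± 0.06. Without P 10 alone they were -0.01, -0.04, -0.05 and 0.06, and without NP 8 alone 0.20, 0.20, 0.30 and 0.08. The probe set 1379815_at of Tcf7l2 had -0.02 with all arrays and -0.03 without P 10. Pou4f1 had -0.03 ± 0.22 with all arrays (limma adjusted p = 0.998) and 0.22 ± 0.22 without P 10 and NP 8. Without those and NP 2, NP 9 and NP 10 it was -0.47 ± 0.17 (limma adjusted p = 0.155). The sign of the Pou4f1 difference thus depended on which arrays were kept.

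In HAD1/LAD1 Bcl11b was 0.33 ± 0.28 higher in HAD1 (limma adjusted p = 0.766, n = 8 and 10), and its probe set 1391948_at 0.33 ± 0.24 (0.688). The latter ran from 9.02 through 9.17 to 9.42 in HAD1 and from 8.42 through 8.91 to 9.26 in LAD1. The spread of the fit is shared by all pairs and so includes P 10. With no P and NP arrays in the fit the difference of 1391948_at was 0.33 ± 0.10 and passed (limma adjusted p = 0.0429, 5.2% of all tested probe sets called). With each pair fitted alone it had an adjusted p of 0.0645 in limma, with 3.44% called.

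In HAD2/LAD2 Ppp1r1b was 0.34 ± 0.20 higher in HAD2 (limma p = 0.091, adjusted p = 0.477). It ran from 8.13 through 8.27 to 8.70 in HAD2 and from 7.53 through 8.12 to 8.31 in LAD2. Here too the error shrank without outlying P and NP arrays. Without P 10 and NP 8 it had a limma adjusted p of 0.0586, and with NP 2, NP 9 and NP 10 left out as well 0.34 ± 0.11 passed (limma adjusted p = 0.0484, 6.67% of all tested probe sets called). Ppp1r1b did not pass with no P and NP arrays in the fit, nor with each pair fitted alone. Bcl11b was 0.12 ± 0.29 higher in HAD2.

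The remaining differences were small beside the errors of the shared fit, which include the spread of the P and NP arrays. These errors do not measure the spread of AA/ANA or sP/sNP alone. The SD of Rgs9 within lines was 0.14 in AA/ANA and 0.56 in P/NP, and that of Bcl11b 0.25 in sP/sNP and 1.19 in P/NP. With single arrays left out, the lowest limma adjusted p of Rgs9 in AA/ANA was 0.186. In AA/ANA Rgs9 was -0.17 ± 0.12 (limma adjusted p = 0.649), lower in AA (-0.18 ± 0.13 without the 3 arrays that cluster with other pairs), Bcl11b -0.04 ± 0.26 and Pou4f1 0.09 ± 0.22. In sP/sNP Bcl11b was -0.12 ± 0.29, Ppp1r1b -0.12 ± 0.20 and Pou4f1 -0.10 ± 0.23. Averaged over the 5 pairs Bcl11b was 0.22 ± 0.12 (limma adjusted p = 0.593), Ppp1r1b 0.11 ± 0.09, Pde10a 0.08 ± 0.05, Tcf7l2 0.05 ± 0.03, Rgs9 0.04 ± 0.06 and Pou4f1 -0.07 ± 0.10, and 0 of the 9 probe sets passed, against 1.55% of all tested. These averages rest in part on P 10. Without it Bcl11b had 0.12, Pde10a 0.03 and Pou4f1 -0.04. A test of whether the difference depended on the pair gave adjusted p between 0.511 and 0.997 in limma, with 6.53% of all tested probe sets called and 0 of these 9.

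**Figure D5:**
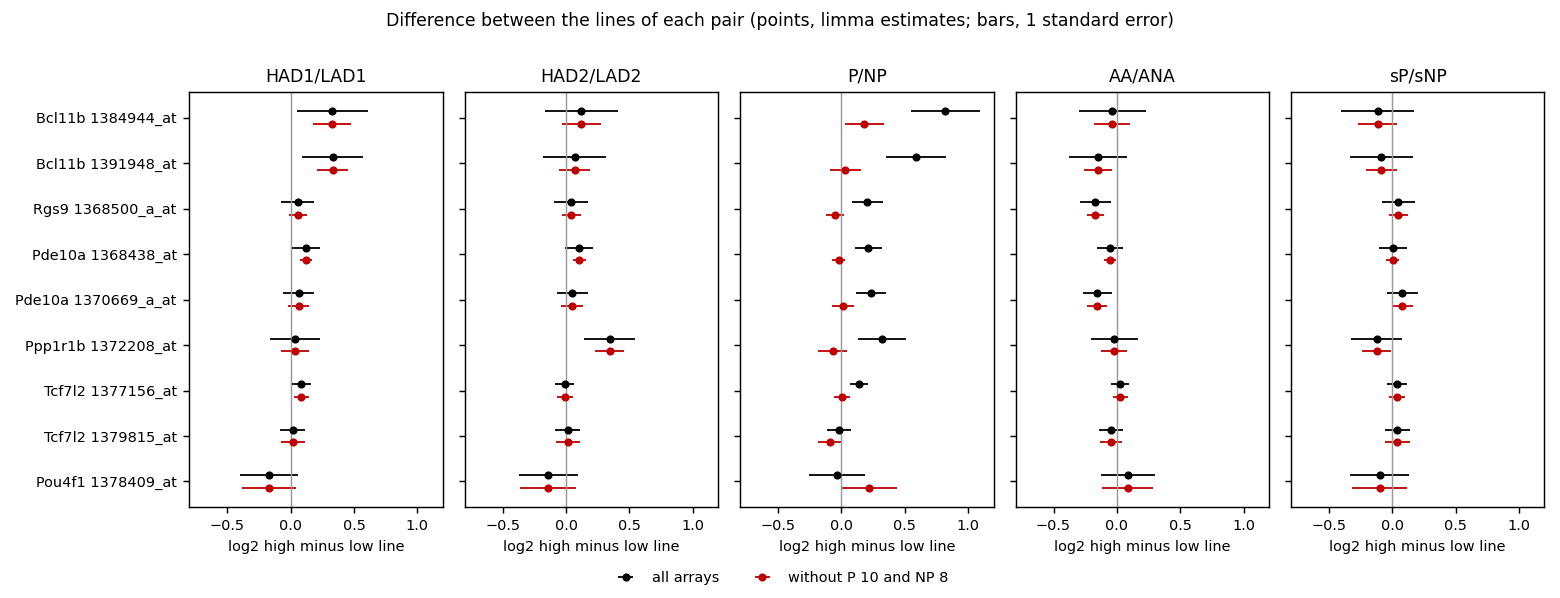
Difference of the high minus the low line on the log2 scale (x axis) for the 9 tested probe sets (y axis) in each pair, as limma estimates (points) with 1 SE (bars), with all arrays in black and without P 10 and NP 8 in red. The P/NP difference of Bcl11b moves from 0.82 to 0.18, and the errors in all pairs are narrower in red for the striatal genes.

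Of 86 tested genes on the marker lists, limma called 2 in HAD1/LAD1, 1 in HAD2/LAD2, 2 in AA/ANA and 0 in P/NP and in sP/sNP. The shares of 2.33%, 1.16% and 2.33% stood below the 3.86%, 5.37% and 3.02% of all 11082 tested genes. Syndig1l, on the striatum list, was 0.72 ± 0.19 higher in HAD1 than LAD1 (limma adjusted p = 0.00933) and 0.77 ± 0.18 higher in AA than ANA (limma adjusted p = 0.00324). Glra1, a glycine receptor subunit, was 1.14 ± 0.28 higher in AA (limma adjusted p = 0.00718). The myelin genes Mobp and Opalin had 0.30 ± 0.08 in HAD1/LAD1 (limma adjusted p = 0.00858) and -0.33 ± 0.10 in HAD2/LAD2 (0.0385).

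The genes most like each of the 6 from animal to animal differed between the P/NP pair and the others. Over the 72 arrays of the 4 other pairs, with line means removed, the 3 of 11081 genes with the highest Pearson r were Pdyn (0.641), Hcrtr2 (0.621) and Prmt8 (0.601) for Bcl11b, and Gria2 (0.582), Mn1 (0.518) and Tacc2 (0.511) for Pde10a. For Rgs9 they were Lman2l (0.629), Lpl (0.603) and Pdk1 (0.590). For Ppp1r1b they were Ecrg4 (0.688), Flna (0.660) and A2m (0.658), for Tcf7l2 Tcf4 (0.634), Naprt (0.618) and Notch1 (0.613), and for Pou4f1 Ahnak2 (0.766), Tesc (0.757) and Trim37 (0.751). No gene had an r above 0.9 or below -0.9 with any of the 6 over these arrays.

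Over the 19 P and NP arrays the likeness was much closer. Bcl11b was most like Dgkb (0.975), Ets2 (0.963) and Gda (0.962), Pde10a most like Atp2b1 (0.980), Gng7 (0.974) and Krt71 (0.972), and Ppp1r1b most like Ddn (0.964), Krt71 (0.964) and Shank2 (0.962). Tcf7l2 was most like Strn3 (0.945), Rgs9 like Klf16 (0.987) and Pou4f1 like Hecw1 (0.988). With an r above 0.9 there were 116 genes for Bcl11b, 94 for Pde10a and 60 for Ppp1r1b, and without P 10 and NP 8 there were 0 for each. For Pou4f1 there were 893 such genes with all arrays, 1102 without P 10 and NP 8, and 415 without NP 2, NP 9 and NP 10 as well. For Rgs9 the counts were 154, 488 and 153. With an r below -0.9 over the 17 arrays there were 779 genes for Pou4f1 and 717 for Rgs9, of the 11081 other genes. Over those arrays Rgs9 was most like the ribosomal protein genes Rps15a (0.981), Rps16 (0.980) and Rpl35 (0.978), and over the 14 like Rps16 (0.975), Rps9 (0.968) and Rps3 (0.968). Pou4f1 was most like Lrpprc (0.994), Gas6 (0.993) and Rab11fip5 (0.992) over the 17. What part this shared variation has in the relations of Rgs9 and Pou4f1 with Th was not tested. The r of these genes share the arrays and their depth of signal and are descriptions.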

How the data were processed

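Ventral tegmental area RNA was prepared by Trizol extraction and RNeasy clean-up, amplified, labelled with biotin and hybridised to 1 Affymetrix array per animal, per the labels' protocols. For 31099 probe sets the authors deposited a log2 signal, and the submitters' processing notes name RMA, which corrects background, normalizes quantiles over arrays and summarises probes. Its version, and which arrays were processed together, are not given in the sources read here. Values ran from 3.71 to 16.2, and 0 columns lacked a sample. For arrays their number limits the precision.

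The platform annotation gave 1 gene symbol to 20826 probe sets, several to 436 and none to 9780, and 57 controls were left out. By gene ID 20758 of the single-gene probe sets were found in RefSeq's GRCr8 genes, with 0 symbols changed. The means of the 10 lines were fitted with limma (lmFit, eBayes) to all arrays at once, leaving 81 residual degrees of freedom. Tests were 2-sided, with Benjamini-Hochberg adjustment over 15152 tested probe sets within each contrast. Correlations used line-centred signals and 100000 permutations within lines, whose smallest p is 1e-05. The fit was tested on simulated data. The 6 genes, the marker lists and the tests were chosen with earlier results of these data known.

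Named genes were all 6 with all their probe sets, 4 dopamine genes (Th, Slc6a3, Slc18a2 and Ddc), up to 4 genes of each list with the largest shift on P 10 and NP 8, list genes that passed in a pair, and for each of the 6 the 3 genes most like it. For some of the 6 only the first was named over the P and NP arrays. Alternatives were other filters, quantile normalization over all arrays, centring, array weights, separate fits of the pairs, a robust prior with an intensity trend, 1 probe set or the mean of the probe sets of a gene, a replicate block and arrays left out. The fits without any P and NP arrays, and without P 10, NP 2, NP 8, NP 9 and NP 10, the 5 such arrays with the lowest correlation with their line, and the AA and ANA correlations without the 3 arrays that cluster with other pairs, were chosen after seeing the data. R 4.3.3 was used with limma 3.58.1 and version 1.17.8 of data.table, and Python 3.11.15 with matplotlib 3.10.9, scipy 1.17.1, pandas 2.3.3 and numpy 2.4.6.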

Additional observations from a re-analysis of the deposited data

Results flagged for a closer look

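In 130 groups of arrays, each 1 line and 1 of the 13 probe sets examined (the 9 tested ones of the 6 genes and those of Th, Slc6a3, Slc18a2 and Ddc), the highest or lowest array stood apart from its line in 18 by Dixon's 95% limit. Chance flags about 1 in 20 groups, or 6.5 here. Of the 18, 6 were the array P 10, all high: Bcl11b at 12.4 and 11.9 (1391948_at), Rgs9 at 9.74, Pde10a at 11.6 and 9.21 (1370669_a_at), and Ppp1r1b at 11.9. On NP 8, 2 stood apart as low, Th at 8.23 and Slc6a3 at 7.98. The remaining 10 lay in other lines. High values were Bcl11b on ANA 2 at 8.50, Ppp1r1b on sNP 9 at 9.24 and Pou4f1 on sNP 4 at 6.40. Low values were Bcl11b 1391948_at on HAD2 5 at 8.16, Rgs9 on ANA 20 at 7.86, Pde10a on HAD1 22 at 10.2 and Tcf7l2 on LAD1 38 at 10.4. Among the dopamine genes Th on HAD2 5 at 13.3, Slc6a3 on ANA 6 at 14.3 and Slc18a2 on LAD2 20 at 12.7 were low.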

How the results depend on the processing

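The line differences of the 9 probe sets kept their side of the threshold in 6410 of 6413 comparisons with an alternative, and the 3 others passed only there: Bcl11b in P/NP with array weights, Bcl11b 1391948_at in HAD1/LAD1 with no P and NP arrays, and Ppp1r1b in HAD2/LAD2 without the 5 arrays, so that 1 of the 9 was called in each. The alternatives were 14 settings and 91 fits that each left out 1 array, mostly of a pair other than the one compared. Most of the 6413 comparisons thus could hardly differ from the main fit. With 0 of the 9 called in the main fit, no called difference there could change sign. Uncalled ones in P/NP did so without P 10. The leading probe sets of Pde10a, Rgs9 and Ppp1r1b went to -0.01, -0.04 and -0.05, and Pou4f1 from -0.03 to 0.15. Of all tested probe sets, array weights called 1040 in HAD1/LAD1, 1515 in P/NP, 1253 in AA/ANA, 5 in sP/sNP, 1057 in the average and 3471 as dependent on the pair, against 620, 0, 481, 0, 235 and 989. Without the 5 arrays there were 158 in P/NP, 410 in the average and 1611 dependent on the pair. Each pair fitted alone gave 197 in AA/ANA, with fewer arrays behind the spread, and 1 probe set a gene gave 155 in the average, over fewer tests. The causes of the other changes were not tested.

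Leaving out 1 array at a time gave 0 to 0 calls among the 9 probe sets in each comparison. Over all tested probe sets it gave 524 to 811 in HAD1/LAD1, 693 to 868 in HAD2/LAD2, 0 to 0 in P/NP and in sP/sNP, 369 to 719 in AA/ANA, 221 to 298 in the average and 927 to 1188 dependent on the pair. Correlations with an adjusted p under 0.05 numbered 10 with all arrays, 8 with each array centred, 5 without P 10 and NP 8, 1 without the 5 arrays and 10 without the 3 AA and ANA arrays that cluster with other pairs. All 18 shifts of the tested probe sets on P 10 and NP 8 moved by less than 1 SD when set against the whole pair.

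Animal numbers shared by P and NP did not pair the arrays (correlations of 9 pairs from -0.71 to 0.70, 1 best with its own number), nor did those of sP and sNP (8 pairs, -0.37 to 0.29). With the number as a replicate block Bcl11b was 0.80 ± 0.46 in P/NP (limma adjusted p = 0.999), and 0 of the 9 probe sets passed in either pair. Pou4f1 was near the dim end of the arrays outside P and NP, which limits what its differences there can show.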
